A study of Rattus norvegicus with 4 samples.

Results

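Wnt signalling was followed in rat synovium, the tissue lining the joint, through 49 genes for Wnt ligands, R-spondins, Frizzled and other receptors, secreted antagonists and core intracellular proteins. They were taken by symbol from a table of 17899 rat genes: every Wnt, Fzd, Sfrp and Dkk symbol followed by a digit, Rspo1 to Rspo4, and Lrp5, Lrp6, Axin1, Axin2, Wif1, Frzb, Lef1, Tcf7, Ctnnb1, Ror1, Ror2, Lgr4, Lgr5 and Sost. Axin1 is not analysed here. The study made 4 bulk RNA-seq libraries from rats with osteoarthritis: AdMSC 1 from synovium that received human AdMSCs, SyMSC 1 from synovium that received human SyMSCs, and PBS 1 and PBS 2 from synovium that received PBS, a salt buffer. AdMSC and SyMSC commonly stand for mesenchymal stem cells of adipose tissue and of synovium, which the labels do not spell out. Synovium was collected a day later than the cells; for PBS the interval is not stated, nor are the way osteoarthritis was brought about or the strain, sex and age of the rats. By its title PBS 1 goes with AdMSC 1 (Ad) and PBS 2 with SyMSC 1 (Sy). These titles call the PBS libraries "mix", which is not explained, and the title of the series speaks of tissue before and after injection, so it is uncertain whether PBS tissue is a parallel control or an earlier state; the treatment label was followed throughout. Whether each library is a separate animal or a pool is not stated, so the p-values reflect the spread among 4 libraries only, which may be technical. Any difference between the 2 cell sources is part of that spread too, as AdMSC 1 and SyMSC 1 differ in the cells received.

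Wnt proteins are secreted lipid-modified ligands that bind Frizzled receptors. With the co-receptor LRP5 or LRP6 they stop the breakdown of beta-catenin, which then acts with TCF and LEF proteins on target genes; with ROR receptors they drive beta-catenin-independent responses. Secreted antagonists of the SFRP, DKK and WIF families hold the ligands or co-receptors in check, and synovial fibroblasts and joint tissues are a known place of their expression.

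Values were TPM, which are corrected for gene length, so levels can be set side by side between genes; TPM keeps no read depth, and counting intervals could not be had. Between 12582 and 13155 genes reached 1 TPM in a library. Of 6 genes of the synovial lining, 4 fell, 1 rose (Has2, a hyaluronan synthase gene, 1.88) and 1 did not pass, with a median log2 change of -1.52. The one that did not pass was Prg4, which encodes the lubricant lubricin and stood at 4192 TPM in AdMSC 1 and 2448 TPM in SyMSC 1, against 3930 TPM in PBS 1 and 3765 TPM in PBS 2. Markers of other cells differed between the libraries as well. By the test described below, 24.7% of all tested genes fell and 23.7% rose. All 6 fibroblast markers examined fell after injection, and their summed level was 9152 and 6676 TPM in AdMSC 1 and SyMSC 1, against 22440 and 19742 TPM in PBS 1 and PBS 2. Of 6 neutrophil markers 5 rose (2277 and 3990 TPM, against 223 and 86.8 TPM), and of 6 monocyte and macrophage markers 5 rose (6021 and 7502 TPM, against 1432 and 1650 TPM). Mural (6 of 6), endothelial (5 of 6), cartilage and tendon (3 of 4 tested), Schwann cell (4 of 6), skeletal muscle (2 of 6) and adipocyte (2 of 5 tested) markers also fell, with median log2 changes of -2.21, -1.75, -2.49, -1.22, -2.92 and -1.47, against -1.45 for fibroblast markers. All 6 markers of cycling cells rose, with a median of 1.78, as did 4 of 5 T cell markers, with a median of 0.87, while none of 6 erythroid markers passed, with a median of -0.49. No marker was listed at 0 in any library. In bulk tissue, fewer cells of a type and less RNA per cell cannot be told apart, and the part of these shifts in the results below was not tested.

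Of the 49 genes, 30 reached 1 TPM in at least 2 libraries and were tested; 14 averaged at least 5 TPM. With limma on log2(TPM + 1), AdMSC 1 and SyMSC 1 together (n = 2) against the PBS libraries (n = 2), 15 of the 30 fell, 1 rose and 14 did not pass an adjusted p of 0.05. Over all 13371 genes tested, 24.7% were called lower and 23.7% higher (48.4% in either direction), against 50.0% lower and 3.33% higher among the 30. The median log2 change was -0.61 over the 30 and 0.00087 over all genes tested. With 1 library left out, 1 side is a single library, and the spread comes from the pair on the other side alone. Without AdMSC 1 the median was -0.95 over 30 tested genes, and without SyMSC 1 it was -0.61 over 29. Over all genes tested in those fits it was -0.055 and 0.023. Both injected libraries lay below both PBS libraries in 19 of the 30 and above them in 3, where 39.4% and 39.5% of all tested genes did so. The 30 include Dkk2 and Frzb, which were under 1 TPM in both injected libraries and entered the test through their PBS values alone, so the counts and the median describe the tested genes and not the whole family.

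**Figure D1:**
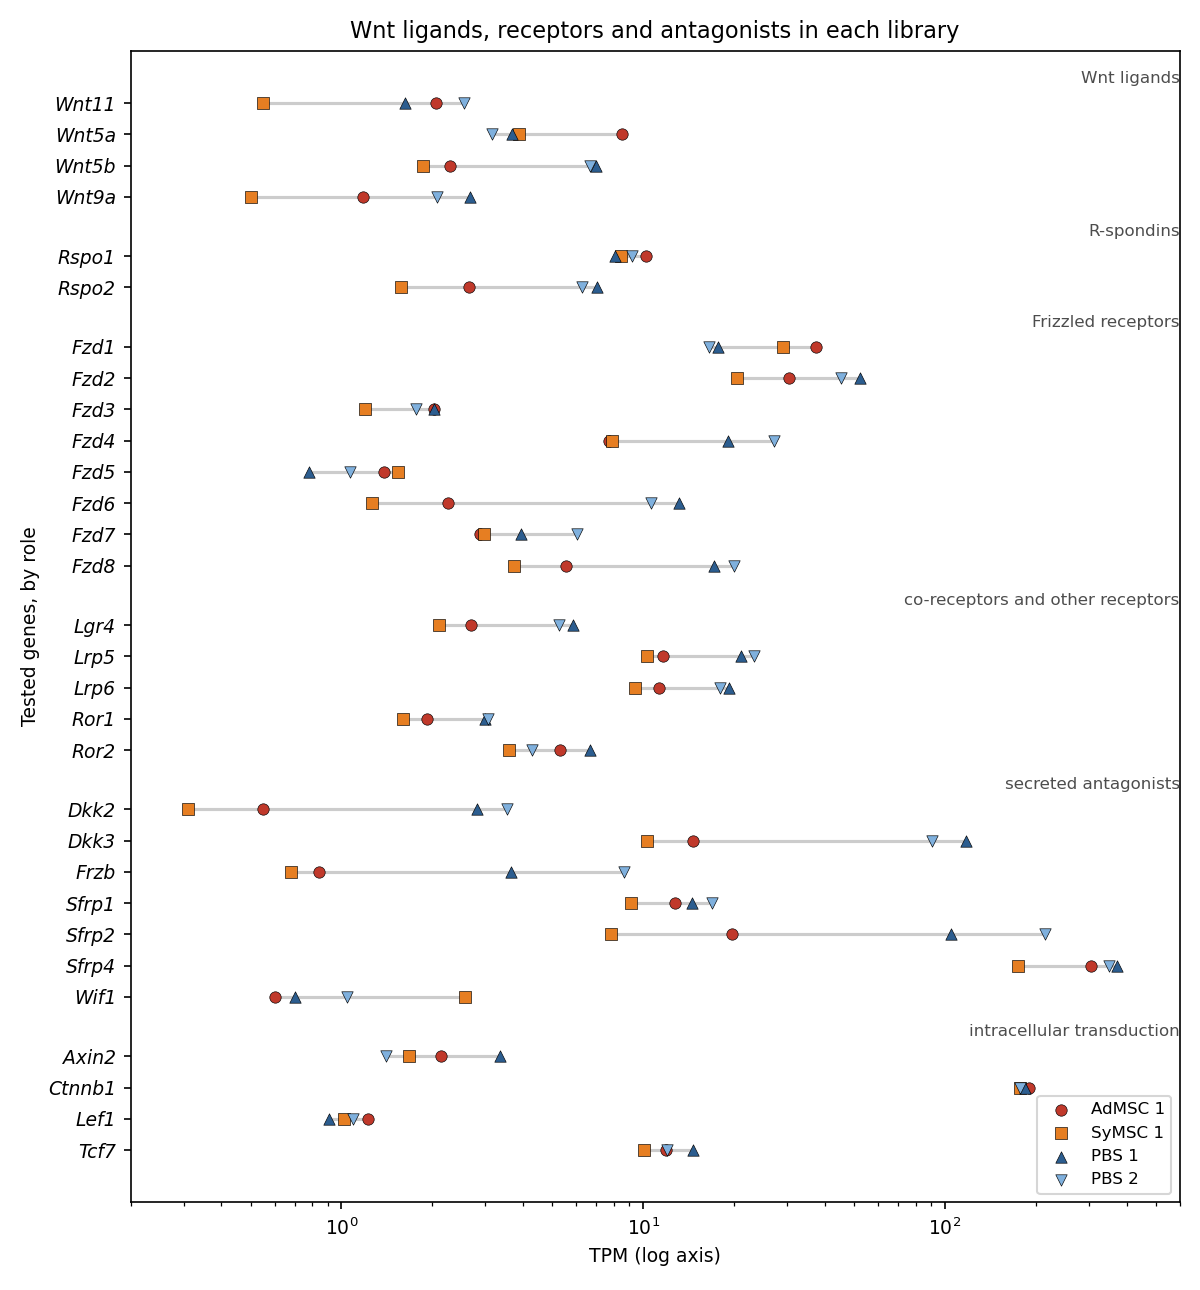
TPM on a log axis for the 30 tested genes, grouped by role, with 1 point per library (AdMSC 1, SyMSC 1, PBS 1, PBS 2) and a line over their range. Dkk3 and Sfrp2 show wide gaps between injected and PBS libraries, while the 4 points of Ctnnb1 lie between 177 and 190 TPM.

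The only gene that rose and the gene with the largest fall are shown first, by the 250 bases before their start in RefSeq (build GRCr8), beside Axin2, a textbook target of beta-catenin. Capitals mark CTTTGA, a core of the site bound by TCF and LEF proteins, or TCAAAG, its reverse complement. Fzd1 lies at chr4:30264824-30265073, Sfrp2 at chr2:171387286-171387535 and Axin2 at chr10:94398535-94398784, all on the plus strand.
Fzd1: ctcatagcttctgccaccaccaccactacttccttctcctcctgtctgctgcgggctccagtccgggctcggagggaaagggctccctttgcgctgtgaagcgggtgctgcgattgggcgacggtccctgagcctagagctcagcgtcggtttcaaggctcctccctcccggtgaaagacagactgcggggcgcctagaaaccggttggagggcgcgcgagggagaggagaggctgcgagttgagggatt
Sfrp2: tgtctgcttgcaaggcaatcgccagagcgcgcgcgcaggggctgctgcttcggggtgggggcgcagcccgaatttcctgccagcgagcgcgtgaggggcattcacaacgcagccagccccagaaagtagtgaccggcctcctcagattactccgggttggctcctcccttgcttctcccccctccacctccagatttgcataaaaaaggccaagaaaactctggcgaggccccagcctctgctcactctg
Axin2: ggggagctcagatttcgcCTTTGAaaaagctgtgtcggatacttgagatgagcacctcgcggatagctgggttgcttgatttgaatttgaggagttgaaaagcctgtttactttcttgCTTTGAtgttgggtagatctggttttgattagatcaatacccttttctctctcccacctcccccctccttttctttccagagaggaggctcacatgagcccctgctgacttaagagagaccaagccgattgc
The Axin2 window held 2 copies of the core, and those of Fzd1 and Sfrp2 held none. Of the 49 genes 34 had an entry, and 2 of these, Axin2 and Fzd7, held the core on either strand, against 13.9% of all 33469 entries. CG dinucleotides numbered 18 before Fzd1, 15 before Sfrp2 and 5 before Axin2, with a median of 19 over the 34 entries and 5 over all. A match is a run of letters and not a known binding site.

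Secreted antagonists had a higher summed level than the ligands, R-spondins or receptors in every library. Of their 7 tested members 4 fell, where 24.7% of all tested genes did. Dkk2 and Frzb, among these 4, entered the test through their PBS values alone. The summed antagonist level was 355 TPM in AdMSC 1 and 206 TPM in SyMSC 1, against 615 TPM in PBS 1 and 685 TPM in PBS 2. Means were 280 ± 105 TPM after injection and 649.9 ± 49.1 TPM with PBS (SD, n = 2 each). The SD after injection spans the 2 cell sources. Sfrp2 (gene ID 310552) encodes a frizzled-related protein that binds Wnts and is typical of fibroblasts. It stood at 19.7 TPM in AdMSC 1 and 7.82 TPM in SyMSC 1, against 104 TPM in PBS 1 and 214 TPM in PBS 2. The groups did not overlap, although libraries of the same group differed widely from each other. Sfrp2 fell by 3.48 on the log2 scale (SE 0.62, limma adjusted p = 0.0209), or 11.2-fold. The call ended without PBS 1 (-4.0, limma adjusted p = 0.0659), without PBS 2 (-2.96, 0.0911) or without SyMSC 1 (-2.87, 0.0853).

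Dkk3 (gene ID 171548), a divergent Dickkopf family member, stood at 14.6 TPM in AdMSC 1 and 10.3 TPM in SyMSC 1, against 117 TPM in PBS 1 and 90.7 TPM in PBS 2. Both injected libraries lay far below both PBS libraries, and Dkk3 fell by 2.97 on the log2 scale (SE 0.21, limma adjusted p = 0.000358), or 7.83-fold. Frzb (gene ID 295691), which encodes the Wnt-binding protein sFRP3 known from cartilage, stood at 0.840 and 0.680 TPM in AdMSC 1 and SyMSC 1, against 3.65 and 8.67 TPM in PBS 1 and PBS 2. It fell by 1.93 on the log2 scale (SE 0.36, limma adjusted p = 0.00729886). Dkk2, whose product binds LRP5 and LRP6, stood at 0.55 and 0.310 TPM after injection of AdMSCs and SyMSCs, against 2.82 and 3.55 TPM with PBS, and fell by 1.55 on the log2 scale (limma adjusted p = 0.00194). With PBS 1 or PBS 2 left out, Dkk2 and Frzb no longer reached the level needed for a test.

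Sfrp4 (gene ID 89803) encodes a secreted Wnt-binding protein whose loss in humans thins cortical bone, and it had the highest mean level of all 49 genes, although Ctnnb1 was slightly above it in SyMSC 1. It stood at 305 TPM in AdMSC 1 and 174 TPM in SyMSC 1, against 371 TPM in PBS 1 and 349 TPM in PBS 2. The groups did not overlap, but AdMSC 1 lay close to the PBS libraries, and the log2 change of -0.64 (SE 0.27) did not pass (limma adjusted p = 0.105). Without AdMSC 1, which leaves SyMSC 1 as the only injected library, the log2 change of Sfrp4 was -1.04. Sfrp1, a further frizzled-related protein gene, stood at 12.7 and 9.08 TPM in AdMSC 1 and SyMSC 1, against 14.6 and 16.9 TPM in PBS 1 and PBS 2. It missed the threshold (-0.50, limma adjusted p = 0.0719), and its log2 change without AdMSC 1 was -0.73. Wif1, which encodes another Wnt-binding inhibitor, stood at 0.60 TPM in AdMSC 1 and 2.56 TPM in SyMSC 1, against 0.70 and 1.04 TPM in PBS 1 and PBS 2. The high value was that of SyMSC 1 alone. Wif1 did not pass (limma adjusted p = 0.489), and its log2 change without AdMSC 1 was 0.93. Sfrp5 and Sost, the gene of the bone antagonist sclerostin, stayed at or under 0.740 TPM in every library and were not tested.

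The make-up of the summed antagonist level differed between the injected and the PBS libraries. Sfrp4 made up 86.0% of the summed antagonist TPM in AdMSC 1 and 84.8% in SyMSC 1, against 60.3% in PBS 1 and 50.9% in PBS 2. Sfrp2 made up 5.55% and 3.80% in AdMSC 1 and SyMSC 1, against 17.0% and 31.3% in PBS 1 and PBS 2. Dkk3 made up 4.13% and 5.02%, against 19.1% and 13.2%. With 2 libraries a side, the smallest two-sided p an exact permutation test can give is 0.333, so these shares are given as values.

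**Figure D2:**
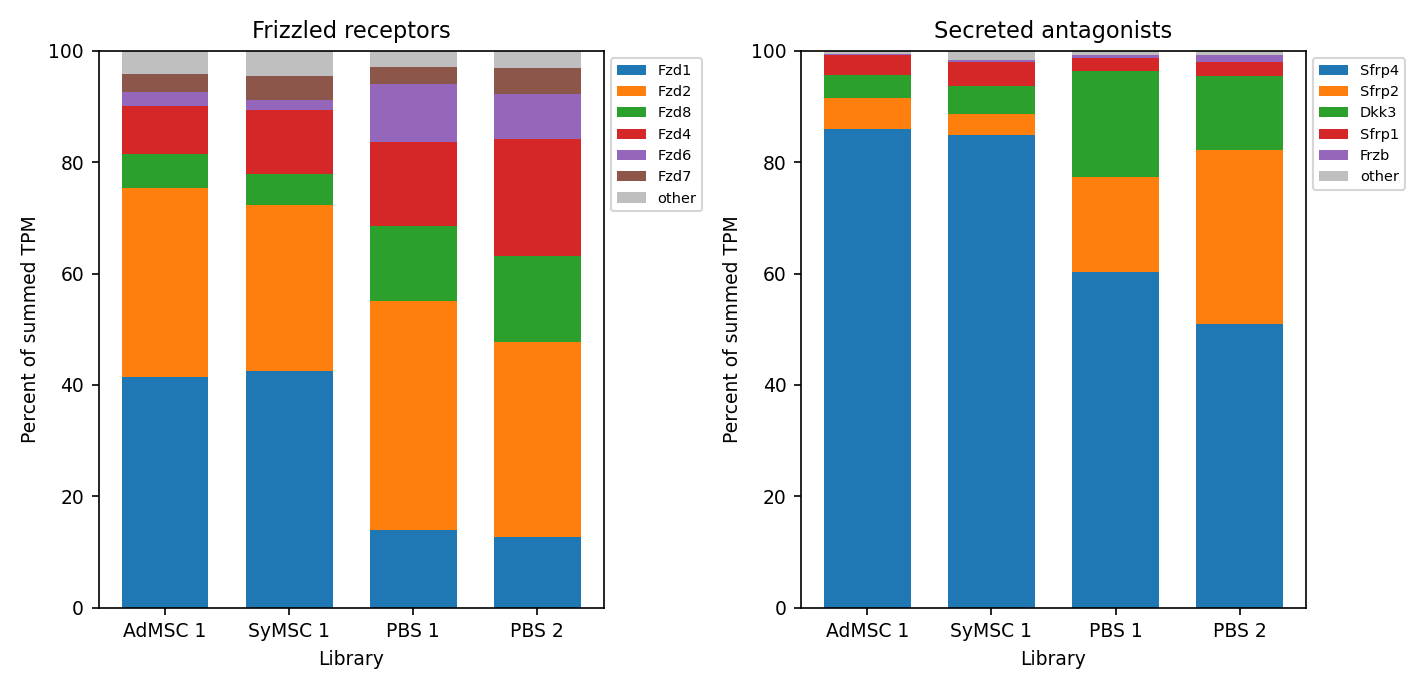
Share of the summed TPM in percent, per library, for the Frizzled receptor genes (left) and the secreted antagonist genes (right), with less abundant genes pooled as other. In AdMSC 1 and SyMSC 1, Fzd1 takes 41.4% and 42.4% of the receptor level and Sfrp4 takes 86.0% and 84.8% of the antagonist level, more than in either PBS library.

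Among the Frizzled receptors 4 of 8 tested genes fell and 1 rose, where 24.7% and 23.7% of all tested genes did. Fzd1 (gene ID 58868) was the only one of the 30 tested genes that rose. It stood at 37.3 TPM in AdMSC 1 and 28.98 TPM in SyMSC 1, against 17.7 TPM in PBS 1 and 16.5 TPM in PBS 2. Both injected libraries lay above both PBS libraries, by more than the libraries of a group differed from each other. No source names a step separating human from rat reads, and any part of human reads in the injected values was not tested. Fzd1 rose by 0.90 on the log2 scale (SE 0.16, limma adjusted p = 0.0056), or 1.87-fold, and was called under each of the 11 alternative settings tried.

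Fzd2 (gene ID 64512), a close relative of Fzd1, went the other way. It stood at 30.5 TPM in AdMSC 1 and 20.4 TPM in SyMSC 1, against 52.3 TPM in PBS 1 and 45.1 TPM in PBS 2, and fell by 0.93 on the log2 scale (SE 0.21, limma adjusted p = 0.0122). The ratio of Fzd1 to Fzd2 was therefore 1.22 in AdMSC 1 and 1.42 in SyMSC 1, against 0.339 in PBS 1 and 0.366 in PBS 2. Fzd1 was the most abundant receptor of the family in both injected libraries and Fzd2 in both PBS libraries. Of the summed Frizzled level, 89.9 and 68.3 TPM in AdMSC 1 and SyMSC 1 against 127 and 129 TPM in PBS 1 and PBS 2, Fzd1 made up 41.4% and 42.4%, against 14.0% and 12.8%. This ratio does not depend on how a library was scaled.

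Fzd6 (gene ID 282581), known from planar polarity of hair in mice, showed the largest fall of the receptors. It stood at 2.26 TPM in AdMSC 1 and 1.26 TPM in SyMSC 1, against 13.1 TPM in PBS 1 and 10.6 TPM in PBS 2 (log2 change -2.24, SE 0.24, limma adjusted p = 0.00103). Fzd8 (gene ID 364754) stood at 5.55 and 3.74 TPM in AdMSC 1 and SyMSC 1, against 17.2 and 20.05 TPM in PBS 1 and PBS 2 (log2 change -1.81, SE 0.20, limma adjusted p = 0.00121). Fzd4 (gene ID 64558), also the receptor for Norrin in vessels, stood at 7.71 and 7.88 TPM in AdMSC 1 and SyMSC 1, against 19.1 and 27.1 TPM in PBS 1 and PBS 2 (log2 change -1.43, SE 0.19, limma adjusted p = 0.00209). Endothelial markers moved beside it, with 5 of 6 lower and sums of 235 and 195 TPM, against 579 and 641 TPM; their part in the Fzd4 value was not tested. Fzd7 stood at 2.87 and 2.96 TPM in AdMSC 1 and SyMSC 1, against 3.93 and 6.03 TPM in PBS 1 and PBS 2. It missed the threshold (-0.59, limma adjusted p = 0.0718), and its log2 change without PBS 1 was -0.84. Fzd3, at 1.20 to 2.02 TPM, and Fzd5, at 0.780 to 1.54 TPM, did not pass either, and Fzd9 and Fzd10 were too low to test.

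The co-receptors and other receptors were called lower after injection in 4 of 5 tested cases, where 24.7% of all tested genes were. Lrp5 and Lrp6 encode the paired co-receptors of beta-catenin signalling. Lrp5 (gene ID 293649) stood at 11.6 TPM in AdMSC 1 and 10.3 TPM in SyMSC 1, against 21.1 TPM in PBS 1 and 23.3 TPM in PBS 2 (log2 change -0.96, SE 0.14, limma adjusted p = 0.00292). Lrp6 (gene ID 312781) stood at 11.3 and 9.37 TPM in AdMSC 1 and SyMSC 1, against 19.2 and 17.97 TPM in PBS 1 and PBS 2 (log2 change -0.79, SE 0.15, limma adjusted p = 0.00714). The pair kept a like proportion, with a ratio of Lrp5 to Lrp6 of 1.02 and 1.10 in AdMSC 1 and SyMSC 1, against 1.10 and 1.29 in PBS 1 and PBS 2.

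Lgr4 (gene ID 286994), a receptor for R-spondins, stood at 2.69 and 2.11 TPM in AdMSC 1 and SyMSC 1, against 5.86 and 5.27 TPM in PBS 1 and PBS 2 (log2 change -0.95, SE 0.19, limma adjusted p = 0.00815). Ror1, a receptor tyrosine kinase for Wnt5a, stood at 1.92 and 1.60 TPM in AdMSC 1 and SyMSC 1, against 2.99 and 3.05 TPM in PBS 1 and PBS 2. It passed narrowly (-0.54, limma adjusted p = 0.0481) and lost its call when any 1 library was left out (0.0983 for AdMSC 1, 0.199 for SyMSC 1, 0.164 for PBS 1, 0.185 for PBS 2) and with the title arm as a block (0.0624). Its relative Ror2 stood at 5.32 and 3.60 TPM in AdMSC 1 and SyMSC 1, against 6.64 and 4.27 TPM in PBS 1 and PBS 2; the groups overlapped and it did not pass (limma adjusted p = 0.482). Lgr5, a stem cell marker in gut, was at or under 0.290 TPM in every library.

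Of 16 Wnt ligand genes only Wnt5a, Wnt5b, Wnt9a and Wnt11 were high enough to test, and the other 12 stayed at or under 0.710 TPM in every library. Wnt5b (gene ID 282582), a ligand mostly of the beta-catenin-independent branch, stood at 2.29 TPM in AdMSC 1 and 1.87 TPM in SyMSC 1, against 7.0 TPM in PBS 1 and 6.68 TPM in PBS 2. The groups were well apart, and Wnt5b fell by 1.35 on the log2 scale (SE 0.18, limma adjusted p = 0.00211). Its paralog Wnt5a (gene ID 64566) stood at 8.48 TPM in AdMSC 1 and 3.89 TPM in SyMSC 1, against 3.68 TPM in PBS 1 and 3.15 TPM in PBS 2. Only AdMSC 1 was clearly above the PBS libraries, and Wnt5a did not pass (0.63, limma adjusted p = 0.16). Its log2 change without SyMSC 1, with AdMSC 1 as the only injected library, was 1.11. The ratio of Wnt5a to Wnt5b was 3.70 in AdMSC 1 and 2.08 in SyMSC 1, against 0.526 in PBS 1 and 0.472 in PBS 2.

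Wnt9a (gene ID 287357), known in mice from the forming joint, stood at 1.18 and 0.500 TPM in AdMSC 1 and SyMSC 1, against 2.66 and 2.07 TPM in PBS 1 and PBS 2. It fell by 0.89 on the log2 scale (SE 0.24, limma adjusted p = 0.0252); the call ended without SyMSC 1 (-0.62, 0.129), PBS 1 (-0.76, 0.117) or PBS 2 (-1.02, 0.05003). Wnt11 stood at 2.06 and 0.55 TPM in AdMSC 1 and SyMSC 1, against 1.62 and 2.54 TPM in PBS 1 and PBS 2, with overlapping groups (limma adjusted p = 0.305). R-spondins, which raise Wnt responses through LGR receptors, were present as Rspo1 and Rspo2. Rspo2 (gene ID 500863) stood at 2.65 and 1.57 TPM in AdMSC 1 and SyMSC 1, against 7.05 and 6.29 TPM in PBS 1 and PBS 2, and fell by 1.32 on the log2 scale (SE 0.23, limma adjusted p = 0.00487). Rspo1, at 10.3 and 8.43 TPM in AdMSC 1 and SyMSC 1 against 8.05 and 9.19 TPM in PBS 1 and PBS 2, had overlapping groups and did not pass (limma adjusted p = 0.644). Rspo3 was listed at 0.110 and 0.150 TPM in AdMSC 1 and SyMSC 1, against 0.650 and 1.30 TPM in PBS 1 and PBS 2, too low for the test.

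None of the 4 tested intracellular genes passed, where 48.4% of all tested genes did. Ctnnb1 (gene ID 84353), which encodes beta-catenin, stood at 190 TPM in AdMSC 1 and 177 TPM in SyMSC 1, against 185 TPM in PBS 1 and 177 TPM in PBS 2 (log2 change 0.02, SE 0.12, limma adjusted p = 0.903). The 4 values lay close together, and the sign of that small change turned under upper quartile scaling (-0.03) and without AdMSC 1 (-0.03) or PBS 2 (-0.01). Axin2, a feedback inhibitor and target gene, stood at 2.14 and 1.67 TPM in AdMSC 1 and SyMSC 1, against 3.36 and 1.40 TPM in PBS 1 and PBS 2; both injected values fell between the PBS values. The transcription factor genes Tcf7, at 11.9 and 10.1 TPM in AdMSC 1 and SyMSC 1 against 14.7 and 11.98 TPM in PBS 1 and PBS 2, and Lef1, at 1.22 and 1.02 TPM against 0.910 and 1.09 TPM, did not pass (limma adjusted p = 0.253 and 0.724). Protein levels and the phosphorylation that sets beta-catenin activity are not measured by RNA.

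**Figure D3:**
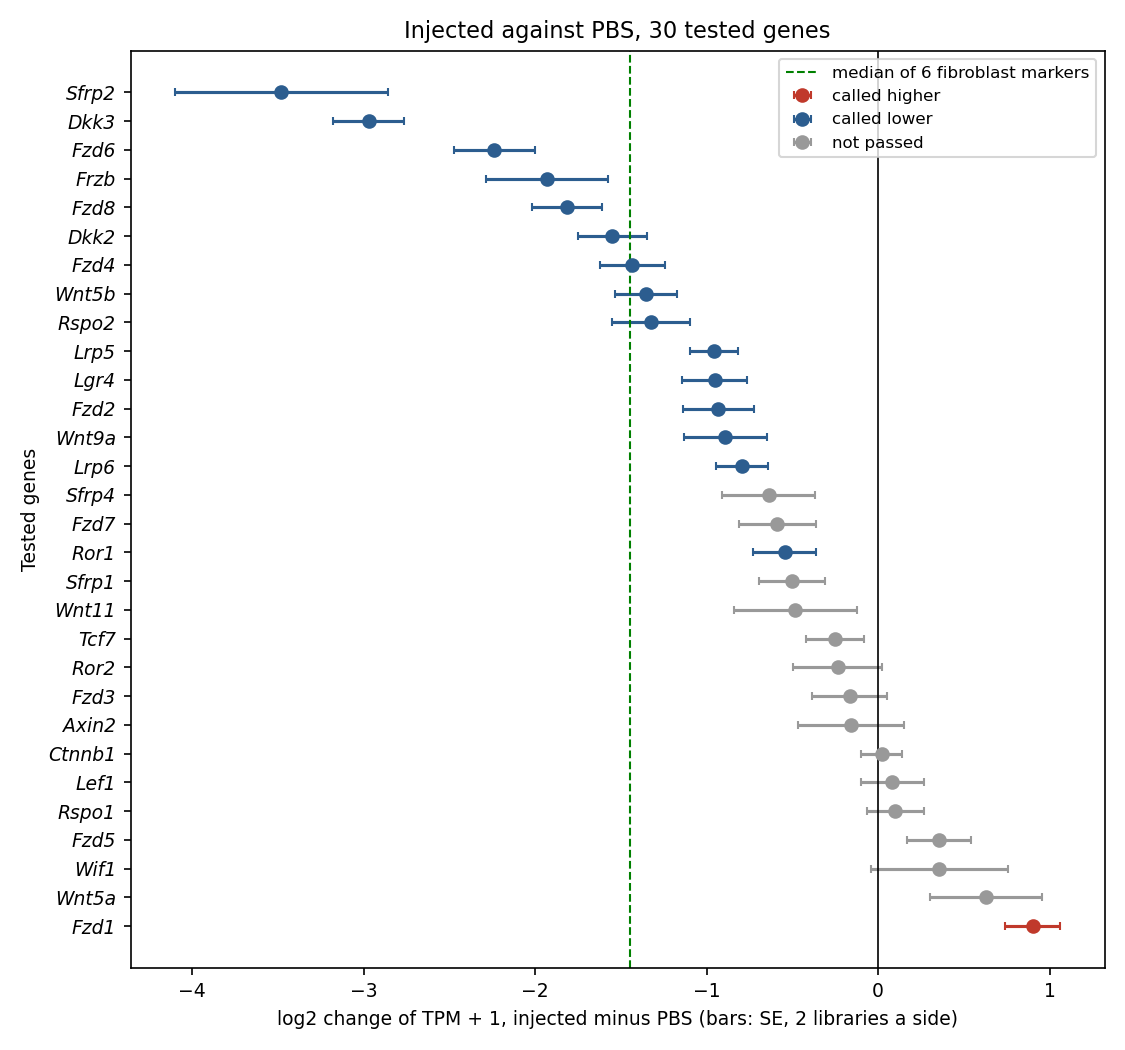
Fitted log2 change of TPM + 1, injected minus PBS, for the 30 tested genes, with bars of 1 SE (2 libraries a side) and colours for genes called higher, called lower or not passed. Fzd1 at 0.90 is the only gene called higher, and 6 genes lie left of the dashed line at -1.45, the median change of 6 fibroblast markers. Of the genes to the left, Dkk2 and Frzb were tested through their PBS values alone.

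Set beside fibroblast genes, the falls were of unequal depth. The 6 fibroblast markers had a median log2 change of -1.45, from -0.85 for the receptor gene Pdgfra to -3.35 for the matrix gene Dpt. Sfrp2, Dkk3, Fzd6, Frzb, Fzd8 and Dkk2 fell further than that median, while the other 9 genes called lower fell less. Frzb and Dkk2 were tested through their PBS values alone. Lrp5, Lrp6 and Lgr4, at -0.79 to -0.96, lay near Pdgfra. Fzd1 rose while all 6 fibroblast markers fell. Of the 6 genes of the synovial lining, Has2 rose as well (1.88), Prg4 did not pass and 4 fell. Medians of the other marker lists with falls lay between -1.22 (Schwann cell) and -2.92 (skeletal muscle). These comparisons rest on fitted values and were not tested.

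Each injected library was also set against the PBS library of its title, where no test is possible with 1 library a side; a gene was counted when TPM + 1 differed at least 2-fold and the larger of the values reached 5 TPM. In AdMSC 1 against PBS 1, 7 of the 19 genes with such a level were lower and 2 higher, Fzd1 and Wnt5a, where 12.3% and 11.1% of all genes with such a level were lower and higher. In SyMSC 1 against PBS 2, 11 of 19 were lower and none higher, against 15.1% and 12.9% of all genes with such a level. Dkk3, Sfrp2, Fzd4, Fzd6, Fzd8, Rspo2 and Wnt5b were lower in both, and Frzb, Fzd2, Lgr4 and Lrp5 were past the ratio in SyMSC 1 against PBS 2 alone. Among the lower genes, Fzd6, Rspo2 and Wnt5b reached 5 TPM in PBS 1 but not in AdMSC 1. Likewise Frzb, Fzd6, Fzd8, Lgr4, Rspo2 and Wnt5b reached it in PBS 2 but not in SyMSC 1. These genes were counted through their PBS values alone, so the counts do not describe the whole family. Fzd1 had ratios of 2.04 in AdMSC 1 against PBS 1 and 1.71 in SyMSC 1 against PBS 2, and Dkk3 had ratios of 0.132 and 0.123. Sfrp2 differed most between the pairs, at 0.196 in AdMSC 1 against PBS 1 and 0.0409 in SyMSC 1 against PBS 2.

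**Figure D4:**
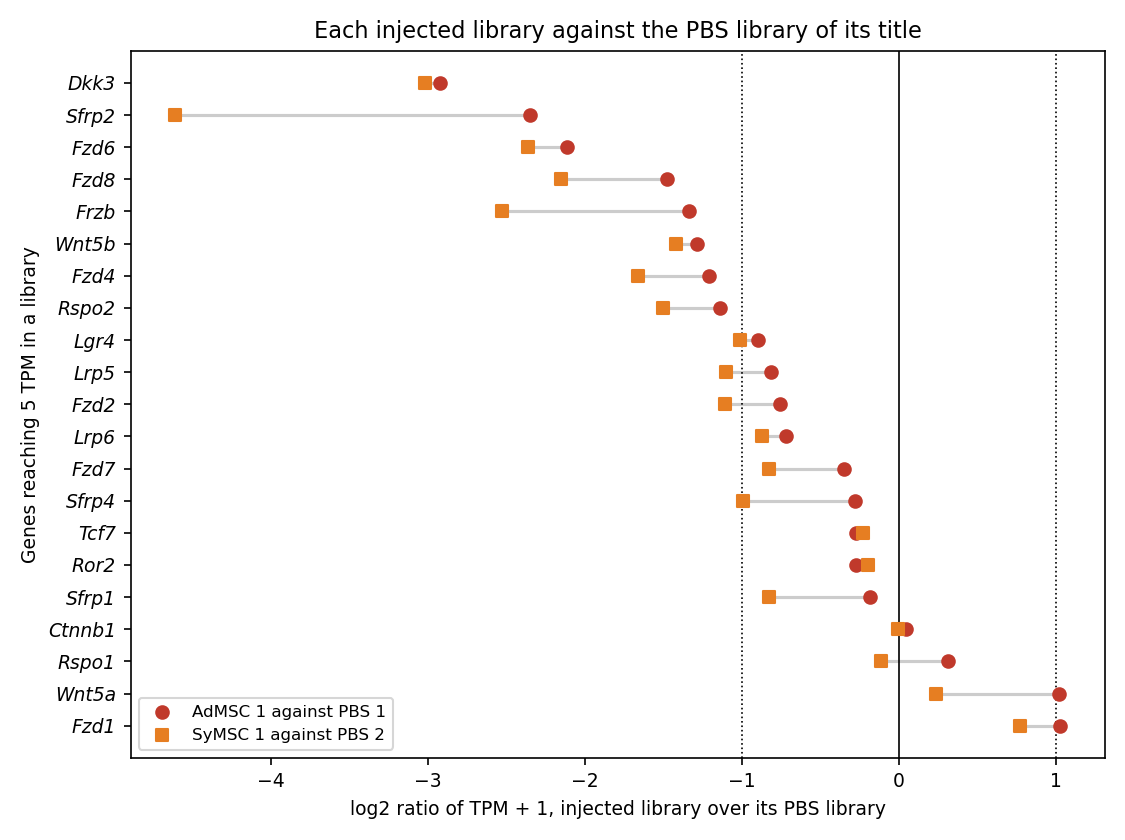
Log2 ratio of TPM + 1 of AdMSC 1 over PBS 1 (circles) and of SyMSC 1 over PBS 2 (squares) for genes that reached 5 TPM in any library, with dotted lines at a 2-fold ratio. Dkk3 has nearly the same ratio in both pairs, and Sfrp2 is further down in SyMSC 1.

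The 2 cell sources were compared in a fit with 3 groups, in which only the PBS pair gives the spread and the lone injected libraries are assumed to vary like it. No gene was called in SyMSC against AdMSC, neither among the 30 nor among all 13371 (0%), with limma; at an unadjusted p under 0.05 there were 5 of the 30 and 861 of all. The 5 were Sfrp4 (log2 difference of SyMSC minus AdMSC -0.80, SE 0.17), Wnt11 (-0.98), Wnt5a (-0.96), Fzd2 (-0.55) and Wif1 (1.15), each with a limma adjusted p of at least 0.544. For the ratio used for single pairs, 15 of the 49 genes reached 5 TPM in AdMSC 1 or SyMSC 1. Sfrp2 alone of these was lower in SyMSC 1 than in AdMSC 1 and none was higher. Among all genes with such a level, 0.732% were lower and 1.48% higher. Of the 30, 26 had a lower value in SyMSC 1 than in AdMSC 1 (86.7%), as did 65.4% of all tested genes. The fibroblast marker sum was lower in SyMSC 1 too, 6676 against 9152 TPM, as was Prg4; their part in this was not tested. Between the PBS libraries, 20 of the 49 genes had such a level. Frzb and Sfrp2 were past the ratio, both higher in PBS 2, and none was lower. Among all genes with such a level, 0.959% were higher and 1.29% lower. The PBS libraries also differed in other markers: the adipocyte sum was 1520 TPM in PBS 2 and 556 TPM in PBS 1, and the skeletal muscle sum was 585 TPM in PBS 2 and 1709.9 TPM in PBS 1. Their part in the Frzb and Sfrp2 differences was not tested.

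Further genes of the pathway were read from 6 lists, of which 74 of 79 genes were found and 61 tested. Of these 15 rose, 23 fell and 23 did not pass, with a median log2 change of -0.27. That is 24.6% higher and 37.7% lower, where 23.7% and 24.7% of all tested genes were called higher and lower. Among genes for making and removing Wnt ligands 4 of 5 fell. Wls, the carrier that brings Wnts to the cell surface, stood at 49.4 and 34.2 TPM in AdMSC 1 and SyMSC 1, against 129 and 108 TPM in PBS 1 and PBS 2 (-1.50, limma adjusted p = 0.00216). Porcn, the enzyme that attaches the lipid, stood at 13.97 and 10.6 TPM, against 24.1 and 28.1 TPM (-1.04, 0.00467). Of 5 other surface regulators 3 fell and 1 rose. The membrane inhibitor gene Apcdd1 stood at 5.10 and 3.58 TPM in AdMSC 1 and SyMSC 1, against 10.8 and 15.1 TPM in PBS 1 and PBS 2 (-1.38, limma adjusted p = 0.00422). The co-receptor gene Ryk (-0.54, 0.0280) was lost without SyMSC 1 (0.0943), PBS 1 (0.128) or PBS 2 (0.0627). Ptk7, a planar polarity receptor gene, rose (0.71, 0.0154) and was lost without AdMSC 1 (0.0714) or PBS 2 (0.0678).

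Inside the cell, genes of these lists went both ways, as did all tested genes, of which 23.7% were called higher and 24.7% lower. Of 14 tested genes of the destruction complex and signal relay 4 rose, 2 fell and 8 did not pass. Gsk3b, a kinase that marks beta-catenin for breakdown, stood at 42.8 and 37.4 TPM in AdMSC 1 and SyMSC 1, against 20.6 and 18.2 TPM in PBS 1 and PBS 2 (1.01, limma adjusted p = 0.00244). The casein kinase gene Csnk1e rose (0.78, 0.0123), and the relay gene Dvl1 fell (-0.69, 0.00635). Of 12 nuclear partners 2 rose, 4 fell and 6 did not pass. The corepressor genes Tle3 (1.27, limma adjusted p = 0.00103) and Tle4 (0.99, 0.00715) rose, while Tle2 (-1.36, 0.00242) and the TCF family gene Tcf7l1 fell. Tcf7l1 stood at 7.16 and 3.99 TPM in AdMSC 1 and SyMSC 1, against 21.99 and 20.4 TPM in PBS 1 and PBS 2 (-1.80, 0.00241).

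Of 10 tested genes commonly listed as beta-catenin targets 5 rose, 4 fell and 1 did not pass. Over all tested genes 23.7% rose and 24.7% fell. Those that rose most were Fosl1, an AP-1 subunit gene (2.73, limma adjusted p = 0.00119), and Plaur, the urokinase receptor gene (1.87, 0.000633), both also known as genes of inflammation. The feedback inhibitor gene Nkd2 stood at 4.27 and 3.54 TPM in AdMSC 1 and SyMSC 1, against 14.1 and 12.8 TPM in PBS 1 and PBS 2 (-1.56, 0.00106), and the growth factor gene Fgf18 fell as well (-1.30, 0.00124). In the planar polarity and calcium branch 3 of 15 rose, 6 fell and 6 did not pass, beside the same shares of all tested genes. Cthrc1, a secreted collagen-associated protein gene, stood at 127 and 79.6 TPM in AdMSC 1 and SyMSC 1, against 678 and 391 TPM in PBS 1 and PBS 2 (-2.34, limma adjusted p = 0.00756). Nfatc2 fell (-2.19, 0.00106) and its relative Nfatc1 rose (0.67, 0.00622), as did the calcium-dependent kinase gene Camk2d (0.73, 0.00777).

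**Figure D5:**
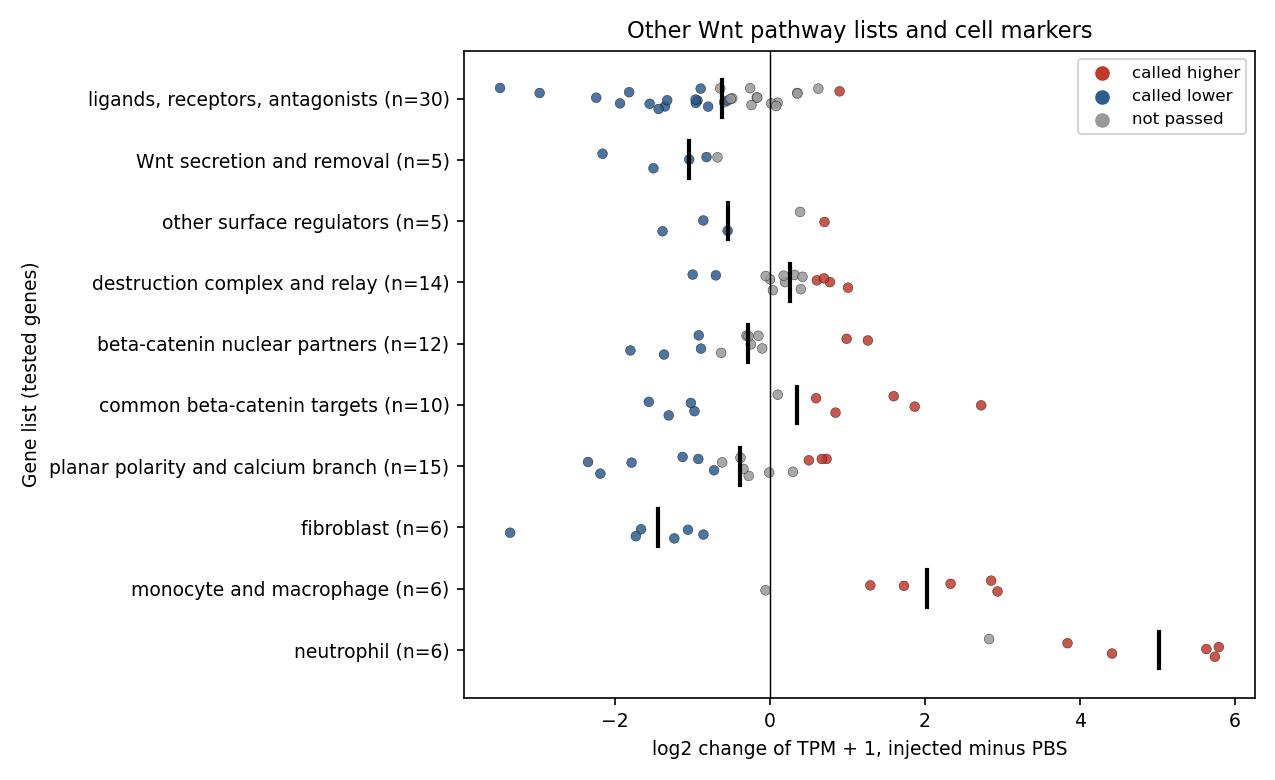
Fitted log2 change of TPM + 1, injected minus PBS, for each tested gene of the ligand, receptor and antagonist set, of 6 further pathway lists and of 3 cell marker lists; black bars are list medians and colours show genes called higher, called lower or not passed. The fibroblast markers all lie below 0 and the neutrophil markers all above, while the destruction complex and target lists spread to both sides.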

How the data were processed

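Bulk RNA-seq of 4 synovium libraries was used. Per the file headers the deposited table holds TPM, scaled by the authors to the same total over rat genes in each library. HISAT2 2.0.4 and build Rnor_6.0 are named in the submitters' processing notes, with no role given; no source names the counting tool, the annotation or a step separating human from rat reads. Per the labels' protocols, messenger RNA was captured with oligo-dT and the second strand marked with dUTP.

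From these values, log2(TPM + 1) was tested with limma 3.58.1 (trended, robust eBayes; R 4.3.3), both injected libraries against both PBS libraries (n = 2 each; 2 residual degrees of freedom). The 13371 genes reaching 1 TPM in 2 or more libraries were tested, with Benjamini-Hochberg adjustment and calls under 0.05. Fold changes refer to TPM + 1 and understate those of low genes. A fit with 3 groups had 1 residual degree of freedom. The genes and lists were chosen with earlier results of these data known. Named genes were those called or averaging 5 TPM, with full statistics for the 3 called genes with the largest change in each role, or else the gene with the highest mean; in each pathway list, up to 2 rises and 2 falls averaging 5 TPM. Values of other genes, and the statistics of Fzd1, Fzd2 and Sfrp4, were added after the values were seen. Promoter sequences are RefSeq's. Alternatives were other scalings, filters and pseudocounts, no trend, a block and each library left out.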

Additional observations from a re-analysis of the deposited data

How the results depend on the processing

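Of the 16 genes called in injected against PBS, 11 were called under each of the 11 alternatives: Dkk3, Fzd1, Fzd2, Fzd4, Fzd6, Fzd8, Lgr4, Lrp5, Lrp6, Rspo2 and Wnt5b. Dkk2 and Frzb were called wherever they were tested. Ror1, Sfrp2 and Wnt9a lost the call under some, Ror1 and Wnt9a also with no filter on low values (limma adjusted p = 0.0589 and 0.0530) and Ror1 with a pseudocount of 0.1 (0.0581). With that pseudocount the log2 change of Dkk2 was -2.66 and that of Wnt9a -1.48. With no filter, Fzd9 (0.0167) and Rspo3 (0.0348) were called lower, and 33.9% of all genes were called. With each library left out, which leaves a single library on 1 side, the median log2 change of the genes tested lay between -0.95 and -0.59. It was -0.28 with no filter and -0.94 with a filter at 5 TPM. Signs were compared only for genes called or averaging at least 5 TPM. Those of Axin2 and other lower genes that did not pass were not followed. Among the genes compared, the sign of Ctnnb1 turned (-0.033 under upper quartile scaling, -0.033 to 0.073 with each library left out). That of Rspo1 turned without AdMSC 1 (-0.026 to 0.228 with each library left out). Ratios of single pairs counted 9 genes in AdMSC 1 against PBS 1, and 3 at a ratio of at least 3. In SyMSC 1 against PBS 2 there were 11, with 6 at a ratio of at least 3 and 7 with a floor of 10 TPM. In SyMSC 1 against AdMSC 1 there was 1, with 3 at a ratio of at least 1.5, 2 with a floor of 1 TPM and 0 at a ratio of at least 3. In PBS 2 against PBS 1 there were 2, with 1 at a floor of 10 TPM and 0 at a ratio of at least 3. The replicate block, by title arm, left 1 gene called higher and 14 lower of 30, where 49.3% of all tested genes were called. It ended the call of Ror1 alone. The titles do not say that the libraries share an animal or day. The correlation over genes of the Ad-titled deviations from the group means was 0.117. Read depth is not recoverable from TPM, so the precision of low values is unknown.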
